A study of Mus musculus with 8 samples.

Results

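Phospho-CREB1 occupancy was examined at 8 genes of cAMP production, Gnas and the adenylyl cyclase genes Adcy2, Adcy3, Adcy4, Adcy5, Adcy6, Adcy7 and Adcy9. They were taken by name out of 21887 protein-coding genes on the chromosomes analysed. A peak was assigned to a gene when its summit lay inside the gene's span or within 10000 bp of it. In control muscle, the stronger peaks lay at the downstream starts of Gnas, at the start of Adcy9 and at 2 sites in Adcy2. By −log10 q they stood at the 68.2nd percentile of their lists or above, lowest at the last Gnas start. In tumor-bearing muscle, C26 replicate 1 had a peak at each of these sites, weak at the Adcy9 start and at the last Gnas start. C26 replicate 2 had the upstream Gnas peak and none of the others. No peak was assigned to Adcy3, Adcy4, Adcy5 or Adcy7 in any library. Of the 2 regions at the Gnas starts, the upstream one was the only region of the 8 genes with a peak in all 4 libraries.

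The data are chromatin immunoprecipitation sequencing (ChIP-seq) of muscle from control mice (CTRL) and from mice carrying C26 tumors, a colon adenocarcinoma line used as a model of cancer cachexia. Of 8 samples, 2 were phospho-CREB1 libraries of CTRL muscle, 2 were phospho-CREB1 libraries of C26 muscle and 4 were inputs, and each phospho-CREB1 library had its own peak list. Per the labels' protocols, C26 cells were placed under the skin of male Balb/c mice aged 2 months. The same age is recorded for the CTRL samples. By those protocols, tumor-bearing mice received rolipram, an inhibitor of phosphodiesterase 4, at 3 mg/kg or its vehicle from day 4. Which of these agents the sampled C26 mice received, what the CTRL mice received, and whether the 2 libraries of a group came from separate animals are not given in the sources used here, so the spread between libraries may be technical. In whole muscle, fewer cells with a bound site and less binding per cell cannot be told apart. The labels name gastrocnemius as the tissue where the extraction protocol names quadriceps, and that protocol mentions antibodies to CREB and to phospho-CREB1 without assigning them.

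The CTRL lists held 10835 and 14975 peaks (replicates 1 and 2, called CTRL-1 and CTRL-2) and the C26 lists 7482 and 4050 (C26-1 and C26-2) on the autosomes, X and Y. Exon positions were not used here, so sites are placed by gene span and start only. Read counts were not analysed here, so depth is unknown, and a missing peak means only that the authors' q threshold of 0.05 was not passed in that library. Fold enrichment over input and −log10 q are the authors' values for each peak. They are scaled within a list, so the strength of a peak is given as its percentile by −log10 q in its own list, where 100 is the strongest. Start peaks (a summit within 1000 bp of a start) in both CTRL libraries were found at 33.6% of all genes and at 4 of 8 skeletal muscle markers, Ckm, Ttn, Tnnt3 and Pvalb. Among markers of 5 other cell types, such peaks were found at 0 of 4 endothelial, 0 of 4 fibroblast, 0 of 4 leukocyte, 0 of 3 adipocyte and 0 of 2 smooth muscle genes. With the wider window of 10000 bp around the span, they were found at 6 skeletal muscle markers, 1 leukocyte marker and 1 adipocyte marker, against 45.4% of all genes.

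Adenylyl cyclases are membrane enzymes that make cAMP when a hormone-bound receptor releases the stimulatory G protein, whose alpha subunit Gs-alpha is a product of Gnas. cAMP activates protein kinase A, which phosphorylates CREB1 and so allows it to recruit coactivators at cAMP response elements. The genes studied here therefore act upstream of the factor that was precipitated. In muscle the route from receptors to cAMP is known for its effects on glycogen breakdown and muscle mass. The cyclases differ in their other inputs: Adcy3 is stimulated by calcium and calmodulin, Adcy2, Adcy4 and Adcy7 by G protein beta-gamma subunits, Adcy5 and Adcy6 are inhibited by calcium, and Adcy9 is poorly responsive to forskolin. Gnas is an imprinted locus in which alternative first exons give several products, Gs-alpha among them.

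The promoter letters are shown for 4 starts near a region found in both CTRL libraries and for the Adcy7 start that has a core motif and no peak. They come from RefSeq (GRCm38.p6, the build of the peaks). Each run is the 250 bases before a start, read 5′ to 3′ on the gene's strand. Capitals mark the core of the cAMP response element, TGACG (called the core motif here), or its reverse complement CGTCA.
Gnas, upstream region (chr2:174327499-174327748, plus strand): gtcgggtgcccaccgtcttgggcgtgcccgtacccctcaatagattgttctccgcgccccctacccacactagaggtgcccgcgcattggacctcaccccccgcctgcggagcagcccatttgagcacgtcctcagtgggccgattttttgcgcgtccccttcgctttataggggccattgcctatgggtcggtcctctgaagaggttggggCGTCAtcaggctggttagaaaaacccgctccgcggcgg
Gnas, downstream region (chr2:174329756-174330005, plus strand): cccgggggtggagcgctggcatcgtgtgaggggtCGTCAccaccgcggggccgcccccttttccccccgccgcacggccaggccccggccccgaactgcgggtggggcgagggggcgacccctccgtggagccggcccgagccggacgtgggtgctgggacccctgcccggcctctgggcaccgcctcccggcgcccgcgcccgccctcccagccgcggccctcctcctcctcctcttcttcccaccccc
Adcy9 (chr16:4420499-4420748, minus strand): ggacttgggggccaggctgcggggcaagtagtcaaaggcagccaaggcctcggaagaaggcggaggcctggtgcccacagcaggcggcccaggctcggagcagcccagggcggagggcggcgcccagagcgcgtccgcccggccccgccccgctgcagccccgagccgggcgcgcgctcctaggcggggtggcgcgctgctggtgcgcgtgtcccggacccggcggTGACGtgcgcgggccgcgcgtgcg
Adcy2 (chr13:68999542-68999791, minus strand): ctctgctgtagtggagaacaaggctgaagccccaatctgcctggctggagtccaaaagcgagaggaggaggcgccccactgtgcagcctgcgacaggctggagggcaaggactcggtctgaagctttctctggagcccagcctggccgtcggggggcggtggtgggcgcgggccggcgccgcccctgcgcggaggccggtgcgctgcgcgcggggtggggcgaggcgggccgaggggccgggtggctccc
Adcy7 (chr8:88282742-88282991, plus strand): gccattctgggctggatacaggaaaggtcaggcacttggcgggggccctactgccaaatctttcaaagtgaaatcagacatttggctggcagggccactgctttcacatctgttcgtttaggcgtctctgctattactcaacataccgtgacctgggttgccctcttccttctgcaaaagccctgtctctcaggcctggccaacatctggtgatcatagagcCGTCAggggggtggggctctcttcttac

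Of 13 promoter windows of 300 bases (250 before and 50 after a start) listed for 7 of the genes, 5 held a core motif on either strand and 0 held the full element TGACGTCA, in which the core motif is contained. Adcy6 had no entry. Over all 32851 windows of the table, 20.8% held a core motif and 1.79% the full element. Windows with a summit within 1000 bp of the start in both CTRL libraries held them in 42.4% and 5.08% of cases, compared with 13.8% and 0.725% of the other windows. The core-motif windows were 3 at Gnas, of which 2 overlap and share 1 site, 1 at Adcy9 and 1 at Adcy7. The Adcy9 core motif (chr16:4420518-4420522) began 24 bases before the start. Summits lay 14, 3 and 35 bp from its centre in CTRL-1, CTRL-2 and C26-1. At the upstream Gnas region the core motif (chr2:174327711-174327715) lay 278, 278, 284 and 315 bp from the summits of CTRL-1, CTRL-2, C26-1 and C26-2, and the summits lay upstream of the 300-base window. At the downstream Gnas region the core motif (chr2:174329790-174329794) lay 173, 980 and 198 bp from the summits of CTRL-1, CTRL-2 and C26-1. The Adcy2 window held no match to these letters although both CTRL libraries had a weak peak there, and the Adcy7 window held one with no peak.

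Gnas occupies chr2:174284320-174346744 (62.4 kb, plus strand), and the table gives it 4 starts. The first is at 174284320. The next pair, 19 bp apart, are at 174327749 and 174327768, and the last is at 174330006, 2.26 kb beyond 174327749. Which product each start gives is not in the table. No library had a peak near the first start, from which the closest summit on the chromosome was 43.1 kb away in each of the 4 libraries.

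The upstream Gnas region (chr2:174327031-174327912) carried the strongest peaks of the 8 genes. Its fold enrichment was 43.1 in CTRL-1, 77.8 in CTRL-2, 24.0 in C26-1 and 21.4 in C26-2. In the same order the −log10 q was 213, 275, 149 and 39.1, and the percentile 97.3, 98.6, 96.8 and 94.0. The peak thus stood near the top of each list, in tumor-bearing as in control muscle. It ranked 291st of 10835, 214th of 14975, 238th of 7482 and 244th of 4050. Summits of the 4 libraries fell within 37 bp of each other, 314 to 351 bp upstream of the start at 174327749. The region also touches the long noncoding RNA gene Gm30189, so the peak cannot be assigned to Gnas alone.

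A weaker downstream Gnas region (chr2:174329656-174331349) covered the last start. It had fold enrichments of 9.68 in CTRL-1, 10.3 in CTRL-2 and 4.45 in C26-1, and no peak in C26-2. Percentiles were 68.3 and 68.2 in the CTRL lists and 22.9 in the C26 list. The summits of CTRL-1 and C26-1 lay 41 and 16 bp upstream of the start, and that of CTRL-2 lay 766 bp downstream, in a peak 1694 bp wide. Within a list, the enrichment at the upstream summit was 4.45 times (CTRL-1), 7.54 times (CTRL-2) and 5.41 times (C26-1) that at the downstream one. The upstream region was the stronger in every list that held both.

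**Figure D1:**
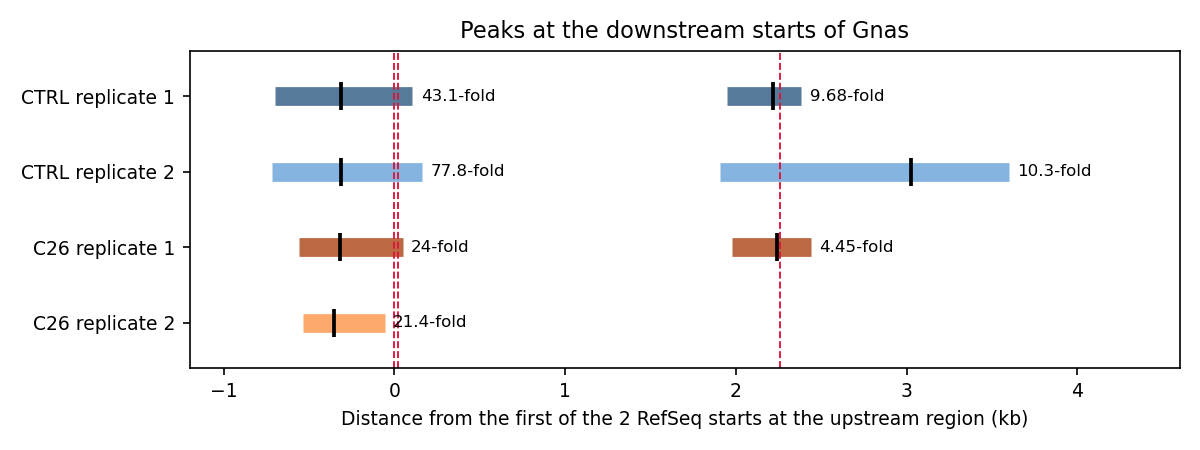
Peaks at the downstream starts of Gnas, with distance in kb from the start at 174327749 on the horizontal axis and 1 row per library. Bars are peak intervals, black ticks summits, dashed lines RefSeq starts, and the labels give fold enrichment over input. All 4 libraries have the upstream peak, and 3 have the downstream one.

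Adcy9 (chr16:4284886-4437236, 152 kb, minus strand) encodes a cyclase found widely, skeletal muscle included. Its only listed start, at 4420498, lies inside the span, not at its end. A region at this start (chr16:4419842-4420864) had peaks of 14.5-fold in CTRL-1, 16.3-fold in CTRL-2 and 4.10-fold in C26-1, and none in C26-2. The percentiles were 85.1, 86.7 and 38.2. Both CTRL peaks stood high in their lists, while the C26-1 peak stood in the lower part of its own. Summits lay 36 and 19 bp upstream of the start in the CTRL libraries and 13 bp downstream in C26-1. The peak was 1023 bp wide in CTRL-1, 501 bp in CTRL-2 and 267 bp in C26-1.

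The rest of Adcy9 held 7 regions, each with a peak in 1 library alone. C26-1 had 3 of them, CTRL-2 had 2, and CTRL-1 and C26-2 had 1 each. C26-1 peaks had summits at 4315606 (5.31-fold), 4318206 (4.73-fold) and 4334257 (3.91-fold), and a CTRL-2 peak at 4317801 (4.41-fold) ended 49 bp short of the second of these. The C26-2 peak at 4370359 was 6.23-fold (37.6th percentile of its list). Adcy9 therefore counted as a gene with a peak in both C26 libraries, but the 2 C26 libraries shared no region in it.

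Adcy2 (chr13:68620043-68999600, 380 kb, minus strand), known chiefly from brain and also from skeletal muscle, had 3 regions with a peak in both CTRL libraries. The near-start region (chr13:68997574-68998216) lay 1.62 to 1.65 kb downstream of the start at 68999541. It had 12.7-fold enrichment in CTRL-1, 13.2-fold in CTRL-2 and 8.74-fold in C26-1, with percentiles of 77.0, 77.9 and 70.2. Summits of these 3 libraries fell within 30 bp of each other. C26-2 had no peak there.

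An internal Adcy2 region (chr13:68793076-68794368) lay 206 kb downstream of the start. Enrichments were 16.4-fold in CTRL-1, 10.4-fold in CTRL-2 and 8.42-fold in C26-1, with percentiles of 86.2, 69.0 and 71.6. The C26-1 percentile fell between those of the CTRL libraries, and C26-2 again had no peak. No other gene of the annotation overlapped this region or the near-start region.

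Another region, at the Adcy2 start itself (chr13:68999194-68999672), was the only region of the 8 genes called in the CTRL pair and in no C26 library. The peaks were weak, at 3.29-fold in CTRL-1 (1.3rd percentile) and 5.41-fold in CTRL-2 (25.5th percentile). Their −log10 q values were 1.75 and 4.59; the lowest value in the CTRL-1 list was 1.33. The region also overlaps the long noncoding RNA gene Gm35161. Adcy2 had 2 further peaks, each in 1 library, 15.5 kb (CTRL-2, 4.72-fold) and 39.9 kb (C26-1, 3.91-fold) from the start.

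**Figure D2:**
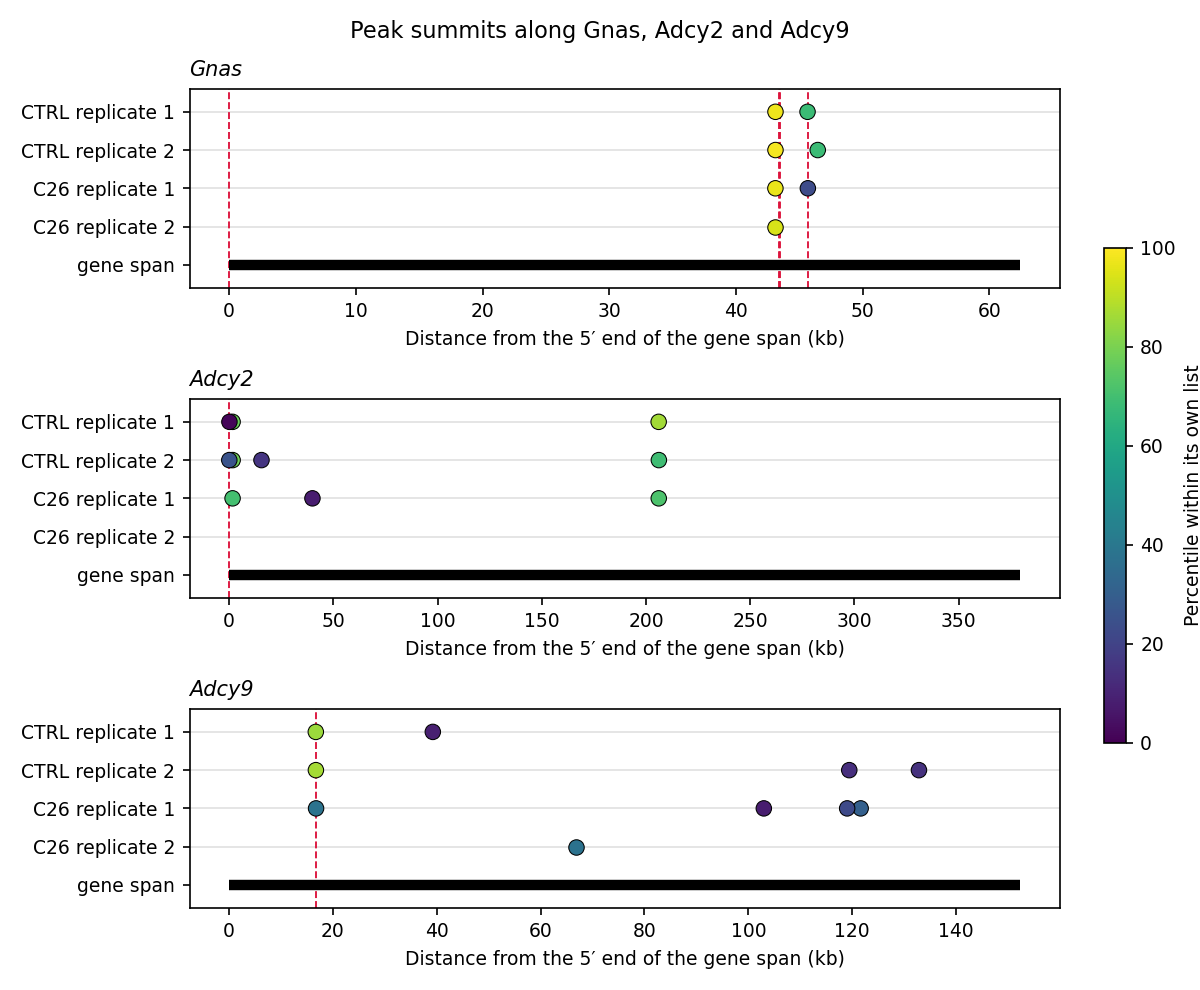
Peak summits along Gnas, Adcy2 and Adcy9 by library, with distance in kb from the 5′ end of each gene span on the horizontal axis. Color gives the percentile of the peak in its own list, dashed lines are RefSeq starts and the black bar is the span. The peaks at the Adcy2 start and near start overlap at this scale. Strong peaks sit at the same places in several libraries, and the weak ones inside Adcy9 are scattered.

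Adcy6 (chr15:98589978-98610287, 20.3 kb), a calcium-inhibited cyclase, had a single peak, in CTRL-2 (chr15:98616443-98616685, 4.41-fold, 13.4th percentile). It lay 6211 bp beyond the high-coordinate end of the gene and 26520 bp from the other. In the other 3 libraries the closest summits were 22.2 to 22.3 kb away, near an end of Ccnt1.

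Adcy5, the other calcium-inhibited cyclase (chr16:35154494-35305743, 151 kb), had its closest summit 58.1 kb away in CTRL-1, CTRL-2 and C26-1, at the end of Sec22a. In C26-2 that distance was 735 kb. The closest summits to Adcy3 (chr12:4133116-4213525, 80.4 kb), the calcium-stimulated cyclase, were 20.5 to 20.9 kb away in the 4 libraries, at the ends of Cenpo and Ptrhd1. Among the cyclases stimulated by beta-gamma subunits, Adcy4 (chr14:55769056-55784095, 15.0 kb) was 23.4 kb from a peak at the ends of Nop9 and Dhrs1 in each of the 4 libraries. Adcy7 (chr8:88272190-88329965, 57.8 kb) was 32.1 to 32.2 kb from a Brd7 peak in 3 libraries and 367 kb from any in C26-2. In this class Adcy2 alone had a peak assigned.

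Across the 8 genes, Gnas, Adcy2 and Adcy9 had a peak assigned in each CTRL library, that is 3, where 45.4% of all protein-coding genes did. Spans were 20 to 100 kb long in 4 of the 8 genes, of which 1 (Gnas) had such peaks against 53.9% of all genes of that length, and over 100 kb in 3, of which 2 (Adcy2 and Adcy9) had them against 46.6%. The background under 20 kb, the class of Adcy4, was 39.7%. Both C26 libraries had a peak at 2 of the 8, Gnas and Adcy9, against 21.1% of all genes. In the 3 length classes from short to long, that background was 20.0%, 23.9% and 17.7%. Adcy2 had peaks in C26-1 but not in C26-2. None (0 of 8) had peaks in the CTRL pair with both C26 libraries empty, against 8.72% of all genes, and 2, Gnas and Adcy9, had peaks in all 4 libraries (20.8%). No library had a peak at 4 of the 8, against 43.6% of all genes. They were Adcy4 (51.5% of genes under 20 kb), Adcy3 and Adcy7 (33.1% from 20 to 100 kb) and Adcy5 (38.2% over 100 kb).

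At starts, a summit within 1000 bp was found in each CTRL library for 3 of the 8 genes, Gnas, Adcy2 and Adcy9 (33.6% of all genes). Gnas was the 1 gene with a start peak in each C26 library (13.4%) and in all 4 libraries (13.1%). Adcy2 was the 1 gene whose start was called in the CTRL pair alone (7.81%), and 5 starts had no peak in any library (56.1%). With 8 genes these counts describe the members and single out no property of the group.

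The peaks formed 16 merged regions, 6 with a peak in both CTRL libraries, and 10 (62.5%) had a peak in 1 library alone, where 42.7% of all 17606 regions did. The 10 were weak, from 3.91- to 6.23-fold and from the 8.1st to the 37.6th percentile of their lists, with 5 in CTRL and 5 in C26 libraries. Of the 6 regions in both CTRL libraries, 5 had a peak in C26-1 (65.8% of all such regions) and 1 in C26-2 (36.6%). The one without any C26 peak compares with 30.8% of all such regions, and the one in all 4 libraries with 33.2%.

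**Figure D3:**
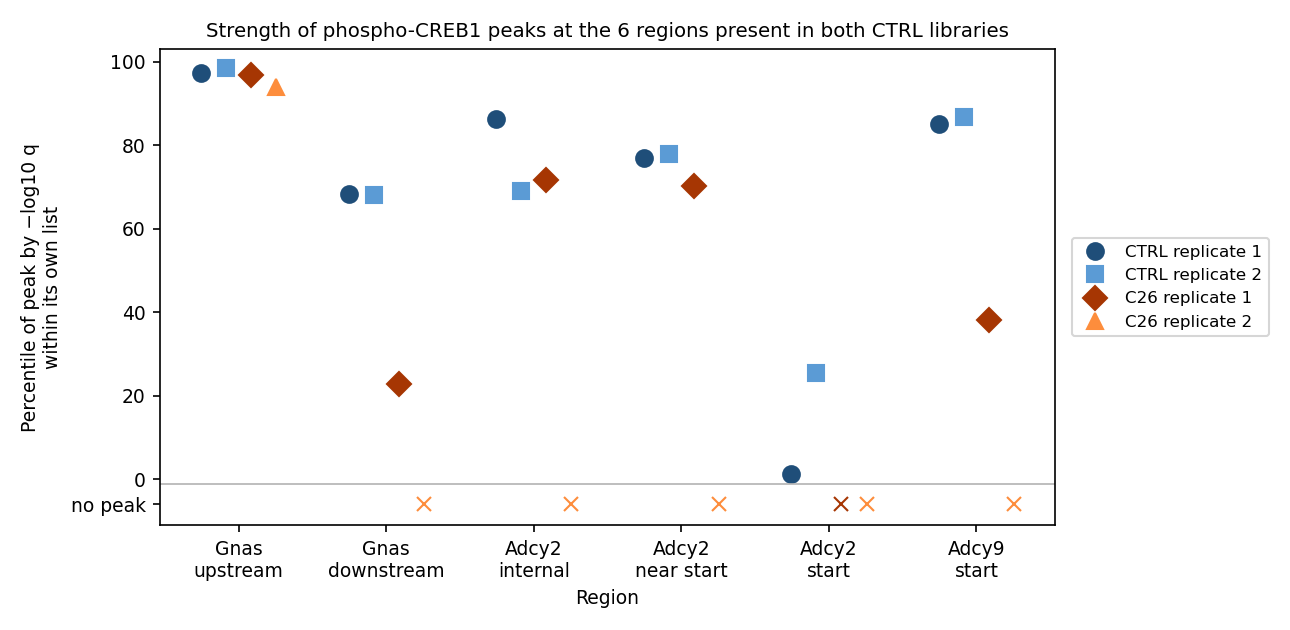
Percentile of the peak within its own list (vertical axis) for the 6 regions with a peak in both CTRL libraries (horizontal axis), with 1 symbol per library and crosses for libraries without a peak. The upstream Gnas region stands at 94.0 or above in the 4 lists, and C26-2 has no peak at the other 5.

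The number of peaks at the 8 genes was 7 in CTRL-1, 10 in CTRL-2, 9 in C26-1 and 2 in C26-2. The groups overlapped. The CTRL mean was 8.50 ± 2.12 and the C26 mean 5.50 ± 4.95 (SD, n = 2 each). The mean log2 number was 3.06 in CTRL and 2.08 in C26, 0.98 higher in CTRL (exact permutation p = 0.667, two-sided, where 2 against 2 allows no p under 0.333). Without C26-2 the difference was -0.11, and without C26-1 it was 2.06. As shares of the lists, the numbers were 0.0646%, 0.0668%, 0.120% and 0.0494%, highest in C26-1 and lowest in C26-2. Both CTRL shares thus lay between the C26 shares, and the mean share was higher in C26, unlike the mean number. C26-2 also had the shortest list, and the part of list length in its missing peaks was not tested.

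**Figure D4:**
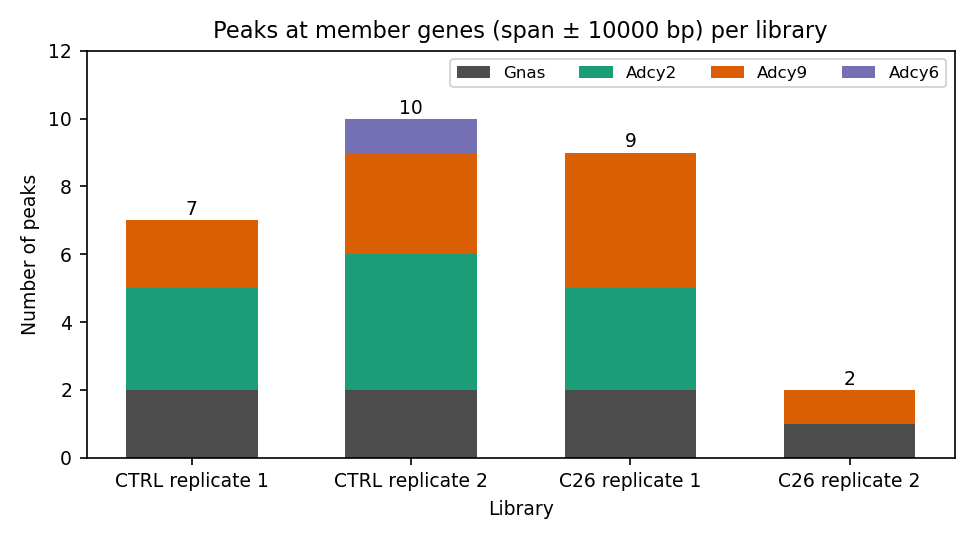
Number of peaks (vertical axis) assigned to the genes in each library (horizontal axis), colored by gene. C26-1 has 9 peaks, within the CTRL values of 7 and 10, and C26-2 has 2.

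Because weak CTRL regions lacked a C26 peak more often than strong ones over the whole series, each region was set beside all regions of like CTRL strength, in deciles of the lower of the 2 CTRL percentiles. The Adcy2 start region was in the weakest decile, where 71.9% of regions had no C26 peak. The upstream Gnas region was in the strongest, where 100% had a peak in C26-1 and 95.9% in C26-2. The downstream Gnas and internal Adcy2 regions shared decile 7, where 38.6% had a peak in C26-2, and the near-start Adcy2 region was in decile 8, where 54.4% did. In decile 9, which held the Adcy9 start, 75.7% had a peak in C26-2 and 99.8% in C26-1.

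Within the C26-1 list, the Adcy9 start stood low for its decile. Of 895 decile 9 regions with a peak in that list, the median percentile was 79.8 (quartiles 72.0 and 85.7), and 16 (1.79%) stood at or below the Adcy9 value of 38.2. The downstream Gnas region, at 22.9, was under the lower quartile of its decile as well (median 54.6, quartiles 37.8 and 67.1), with 11.5% of regions at or below it. Upstream Gnas (96.8 against a median of 94.0) and near-start Adcy2 (70.2 against 65.9) lay within the quartiles of their deciles, and internal Adcy2 (71.6 against 54.6) lay above. These positions are descriptions of 1 library, chosen for mention after their values were seen, and no C26-2 peak exists to set beside the Adcy9 one. With the lists trimmed to the length of the shortest, the Adcy9 start was called in both CTRL libraries and in no C26 library. This follows from its rank of 4622 in the C26-1 list, of which 4050 peaks were kept, and is no separate observation.

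**Figure D5:**
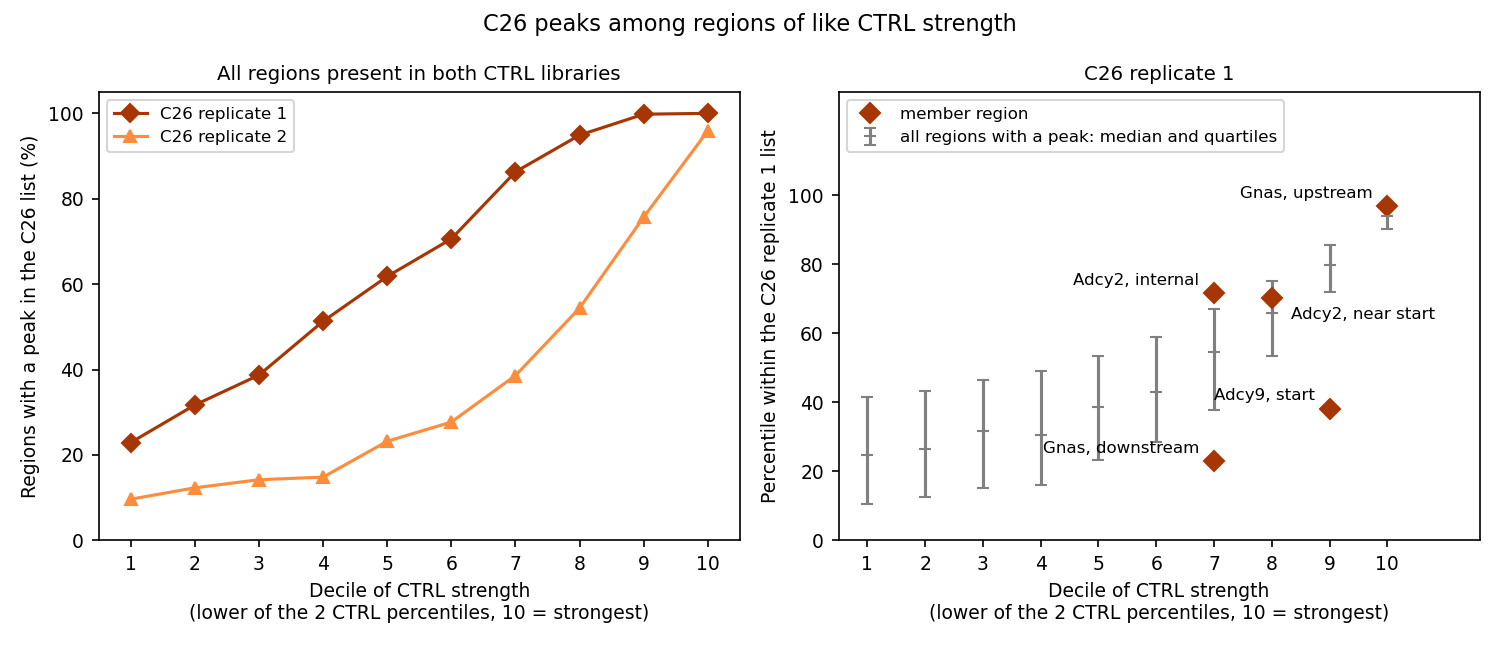
Left, percentage of all regions present in both CTRL libraries that have a peak in each C26 list, by decile of CTRL strength. Right, percentile within the C26-1 list by the same deciles, with medians and quartiles of all regions that have a peak there (gray) and the 5 regions of Gnas, Adcy2 and Adcy9 (diamonds). Adcy9, at 38.2, lies below the lower quartile of 72.0.

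The genes whose start peaks were most like those of Gnas, by Euclidean distance between percentiles in the 4 lists, were 0610012G03Rik and Ncbp2 (both 0.418) and Qtrt2 (0.533). The percentiles of Qtrt2 were 97.5, 98.4, 96.4 and 94.1 in CTRL-1, CTRL-2, C26-1 and C26-2. Those of 0610012G03Rik and Ncbp2 were the same as each other (97.3, 98.6, 97.1 and 94.3). These genes may therefore rest on the same peaks and not be separate cases.

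Around these genes in the pathway, 28 of 65 listed genes (43.1%) had a start peak in both CTRL libraries, against the 33.6% of all genes given above. Both C26 libraries had a start peak at 10 of the 65, against 13.4% of all genes. The CTRL pair alone had one at 5 of the 65, against 7.81% of all genes. No receptor of 14 that couple to the stimulatory G protein had a start peak in both CTRL libraries. Adrb1 and Ptger4 had a start peak in CTRL-2 alone (3.44- and 5.33-fold). In the span or within 10000 bp of it, 2 of the 14 receptors had a peak in both CTRL libraries, against 45.4% of all genes. Of 18 other G protein subunits, 8 had a start peak in both CTRL and 4 in both C26 libraries. Gnb1, a beta subunit, had 19.8-, 19.8-, 11.3- and 13.8-fold enrichment in CTRL-1, CTRL-2, C26-1 and C26-2. Gng5, a gamma subunit, had 7.17-, 12.5- and 6.58-fold, with no peak in C26-2. The alpha subunit gene Gnao1 had 27.5-, 32.1-, 17.6- and 8.09-fold.

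Among 12 regulators of receptors and G proteins, 7 had a start peak in both CTRL and 3 in both C26 libraries. For this list and those below, the shares of all genes were 33.6% (both CTRL) and 13.4% (both C26). Ric8b, a chaperone and exchange factor for Gs-alpha, had 27.3-, 37.4-, 20.8- and 10.2-fold enrichment. Rgs2, which limits G protein signaling, had 9.95-, 22.5-, 6.54- and 9.54-fold. Of 16 genes for cAMP effectors and degradation, 11 had a start peak in both CTRL and 3 in both C26 libraries. They included the protein kinase A catalytic subunit gene Prkaca (32.1-, 41.1-, 25.6- and 13.4-fold) and the phosphodiesterase gene Pde7a (23.3-, 39.1- and 14.4-fold, with no peak in C26-2). Of 5 other cyclases and cyclase-associated proteins, Cap1 and Cap2 had one in both CTRL libraries, and Adcy1, Adcy8 and Adcy10 had a start peak in none of the 4. With the window of 10000 bp, where the share of all genes was 45.4%, both CTRL libraries had a peak at 12 of 18 G protein subunits and 9 of 12 regulators. The same held for 14 of 16 effector and degradation genes and 2 of these 5.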

How the data were processed

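ChIP-seq peak lists of 4 phospho-CREB1 libraries, 2 from CTRL and 2 from C26 muscle, were analysed. The submitters' processing notes give the build as mm10 (GRCm38) and name MACS2 2.1.4, Bowtie2 2.3.5.1, SAMtools 1.6, FastQC 0.11.2 and Picard. Per the labels, each library was called against its group's input of the same number at q 0.05, so replicates were not pooled. A further filter in the labels is not explained. The deposited lists give fold enrichment as a ratio over input, −log10 q and −log10 p, and a score, which was 10 times −log10 q, truncated. The other deposited columns used were start, end and summit offset. In the text, CTRL-1 is CTRL replicate 1, and so on.

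Positions are 1-based. Gene spans and starts came from RefSeq (GRCm38.p6). The starts cover 17492 of 21887 protein-coding genes (79.9%), and both span ends stood in for the others, Adcy6 included. Spans were widened by 10000 bp, starts by 1000 bp. Peaks overlapping by at least 1 bp were merged across libraries. No 2 lists shared a peak with identical coordinates. One mitochondrial peak in C26 replicate 2 was left out. Counts of genes and regions were not tested and stand beside the share of all genes or regions. Peak number was compared by an exact permutation test over 6 assignments. The scripts were tested on simulated data with 200 planted genes. Python 3.11.15, pandas 2.3.3 and numpy 2.4.6 were used.

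Regions with a peak in both libraries of a group were described in full, the others by count and range. The gene lists were fixed by name, and some of the listed genes are not reported here. For likeness, the 3 genes closest to Gnas were named. Members and lists were chosen with earlier results of these data known. Alternatives were a stricter q, trimmed lists, other windows, other overlap rules, a replicate block and leaving out each library. Using span ends in place of starts was added after seeing the data.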

Additional observations from a re-analysis of the deposited data

How the results depend on the processing

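The peak number difference kept its direction under every alternative run except without C26 replicate 2. Shares of list length were not among these alternatives. By share, the CTRL values (0.0646% and 0.0668%) lay between the C26 values (0.120% and 0.0494%). The mean share was higher in C26, so the higher CTRL number did not carry over to shares. Leaving out 1 library at a time gave -0.11 (without C26 replicate 2) to 2.06 (without C26 replicate 1). With a replicate block (pairing equal replicate numbers) it was 0.98 (exact sign-flip p = 1.00 over 2 pairs), since the pairs differed by -0.36 and 2.32. The libraries share only a number. Where a library was left out, a count over both libraries of its group is a count over the 1 that remained, so such counts can rise by construction. The total of 16 regions became 7 at −log10 q of at least 5, 6 with trimmed lists and 26 within 50000 bp. Regions in both CTRL libraries numbered 3 with trimmed lists and 11 within 50000 bp, and 6 to 10 when 1 library was left out (10 without CTRL replicate 1). The number was 5 where summits had to lie within 250 bp of each other. The CTRL summits of the downstream Gnas region lie 807 bp apart. Regions in every library numbered 4 within 50000 bp and 1 to 5 on leaving 1 library out (5 without C26 replicate 2). Regions in both CTRL and neither C26 library numbered 2 within 50000 bp and 1 to 5 on leaving 1 out (5 without CTRL replicate 1 or C26 replicate 1, and 2 without CTRL replicate 2). That count was 1 under the stricter q and with trimmed lists too, but the region was another. It was the downstream Gnas region at −log10 q of at least 5 and the Adcy9 start with trimmed lists, in place of the Adcy2 start. The reverse class, 0 in the main count, ranged from 0 to 4 (4 without C26 replicate 2, 1 without C26 replicate 1). Within 50000 bp, 7 genes had a peak in both CTRL and 5 in both C26 libraries, and with trimmed lists 1 gene had one in both C26 libraries. Genes in both CTRL and neither C26 library numbered 0 to 1 on leaving 1 out (1 without CTRL replicate 1 or C26 replicate 1). For start peaks, genes in both CTRL and neither C26 library numbered 0 at −log10 q of at least 5 and 0 within 2000 bp, and 1 to 2 on leaving 1 out (2 without C26 replicate 1). Start genes in both C26 libraries numbered 1 to 2 (2 without C26 replicate 2). With span ends in place of starts, 1 gene was called in both CTRL and 0 in both C26 libraries, because the starts of Gnas and Adcy9 lie inside their spans. Start genes in both CTRL and neither C26 library fell to 0 at the stricter q because both Adcy2 start peaks lie below it. Within 2000 bp they fell to 0 because the near-start Adcy2 peak of C26 replicate 1 then counted. The causes of the remaining changes were not tested. Of the regions described, the upstream Gnas region kept its peak in all 4 libraries under the stricter q and with trimmed lists, and the Adcy2 start region kept none. Depth is unknown, so the limit it sets on the missing C26 replicate 2 peaks cannot be given.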
